A study of Mus musculus with 2 samples.

Results

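The calcium pumps of the sarcoplasmic reticulum and their small membrane regulators were examined in long-read RNA sequencing of the mouse heart. The set was chosen by name and holds 5 genes: the SERCA pump genes Atp2a1, Atp2a2 and Atp2a3, the phospholamban gene Pln and the sarcolipin gene Sln. All transcript models that the deposited tables assigned to these annotated genes were used, whatever their class. They came to 176 of 56790 models in replicate 1 and 203 of 69026 in replicate 2. Of the 14514 nuclear genes with a read in either library, all 5 members were read, 5 in replicate 1 and 4 in replicate 2.

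The samples were 2 libraries of whole heart tissue from male B6CASTF1/J mice aged 2 months, each made from 2 µg of total RNA, and they formed 1 group with no treatment. Mice of this strain are first-generation offspring of a C57BL laboratory strain and the wild-derived CAST strain. The labels named separate biosamples with their own animal numbers, but 1 description field repeated a single animal number for both, and both carried the same donor entry. Differences between the libraries, called replicate 1 and replicate 2 after the labels, are therefore a spread between samples that may be partly technical. In long-read sequencing a read is meant to follow a transcript from end to end, so splice choices at both ends of a long gene can be read from the same molecule.

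SERCA pumps use ATP to return calcium from the cytosol to the sarcoplasmic reticulum, which lets muscle relax and refills the store for the next beat. Atp2a2 encodes the heart pump SERCA2a and, through another 3′ end, the widely expressed SERCA2b, whose longer tail raises its affinity for calcium. Atp2a1 encodes the pump of fast skeletal muscle, and Atp2a3 that of blood and endothelial cells. Phospholamban, a membrane peptide, slows SERCA2a until it is phosphorylated during adrenergic stimulation. Sarcolipin is its shorter relative, found in the mouse heart mainly in the atria and otherwise in slow and developing skeletal muscle.

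Replicate 1 held 454069 reads and replicate 2 held 661958 reads. Levels are given in CPM, calculated with all reads of annotated nuclear genes (430251 and 629896) as the total. A gene with 0 reads could have had up to 3, the equivalent of 6.97 CPM (replicate 1) or 4.76 CPM (replicate 2). Intervals are 95% and cover counting error only, with each read treated as independent. Repeated copies of a molecule were not marked, and any such copies would make the intervals too narrow. The tissue label was checked against marker lists: all 5 cardiomyocyte, 4 ventricular and 4 atrial markers were read. Of 11 skeletal muscle markers, 5 (Myh1, Myh2, Myh4, Tnnt3 and Ryr1) had no read in either library, while Ckm and Acta1, which the heart also expresses, made up nearly all of the summed level of that list (7944 and 8168 CPM). The smooth muscle, endothelial, leukocyte and platelet, and fibroblast lists summed to between 330.2 and 1111 CPM per library. Of the 31 marker genes tested between the libraries (exact binomial test, described below), Myh6 and Col3a1 passed, both higher in replicate 1. Col3a1 did not pass with spike-in totals or relative to its length class. Among all 8086 genes tested, 0.693% passed.

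The sequences that separate the members are shown first, from the reference transcripts of the GENCODE M21 annotation (mm10 build, 5′ to 3′), so they are those of the C57BL reference and not read from the hybrid mice. Atp2a2 (ENSMUSG00000029467.15) lies at chr5:122453513-122502225 on the minus strand. Its annotated 3′ ends part at the end of an exon at chr5:122457303-122457426. In SERCA2a this exon is spliced over 2998 bases to a last exon at chr5:122453514-122454304, and in SERCA2b it is read through its splice donor to become a last exon of 1087 bases (chr5:122456340-122457426). Both frames share 994 codons. The SERCA2a frame then runs for 4 codons to a total of 998, and the SERCA2b frame for 50 codons to a total of 1044. Both ends are shown with the shared exon in lower case and, in capitals, the bases that follow it in that form through the stop codon.
SERCA2a: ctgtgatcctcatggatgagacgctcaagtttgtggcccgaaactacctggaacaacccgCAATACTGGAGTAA
SERCA2b: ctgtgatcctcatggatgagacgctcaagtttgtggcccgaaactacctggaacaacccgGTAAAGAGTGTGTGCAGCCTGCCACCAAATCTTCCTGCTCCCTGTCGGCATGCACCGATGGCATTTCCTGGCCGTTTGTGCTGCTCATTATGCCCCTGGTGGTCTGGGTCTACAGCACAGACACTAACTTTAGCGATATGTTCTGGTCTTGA

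The regulators are short peptides whose whole coding sequence fits in the last exon of their genes. That of Pln (ENSMUSG00000038583.13, gene at chr10:53337667-53345987, plus strand) has 159 bases at chr10:53343864-53344022. That of Sln (ENSMUSG00000042045.6, gene at chr9:53850164-53854560, plus strand) has 96 bases at chr9:53853473-53853568. Capitals mark the start and stop codons.
Pln: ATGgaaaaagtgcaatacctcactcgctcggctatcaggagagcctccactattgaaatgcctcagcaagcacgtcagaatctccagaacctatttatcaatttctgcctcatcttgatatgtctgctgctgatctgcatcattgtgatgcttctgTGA
Sln: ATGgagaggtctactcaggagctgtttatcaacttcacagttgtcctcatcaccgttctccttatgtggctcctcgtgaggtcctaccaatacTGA

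A very short exon near the 5′ end of the pumps gives a further set of sequences. All 3 pump genes annotate a coding second exon of only 18 bases, preceded by 118 coding bases in the first exon. It lies at chr7:126462500-126462517 in Atp2a1, chr5:122500931-122500948 in Atp2a2 and chr11:72970596-72970613 in Atp2a3. It is shown in capitals with the flanking bases of the neighbouring exons. The second exons of Atp2a1 and Atp2a2 shared 13 of 18 bases, those of Atp2a1 and Atp2a3 shared 15, and those of Atp2a2 and Atp2a3 shared 12.
Atp2a1: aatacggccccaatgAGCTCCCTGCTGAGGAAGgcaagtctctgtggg
Atp2a2: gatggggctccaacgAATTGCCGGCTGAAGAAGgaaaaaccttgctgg
Atp2a3: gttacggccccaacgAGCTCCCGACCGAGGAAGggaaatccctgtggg

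Among the pumps, Atp2a2 held nearly all reads. It had 5551 reads (12902 CPM, interval 12567 to 13243) in replicate 1 and 6784 reads (10770 CPM, 10517 to 11028) in replicate 2. Its mean of 11836 ± 1507 CPM (SD, n = 2) placed it at rank 3 of the 14514 genes, between Slc25a4 (20797 ± 1626 CPM), the mitochondrial ADP/ATP carrier, and Atp5b (10386 ± 870.3 CPM), an ATP synthase subunit. The intervals of Atp2a2 did not overlap between the libraries, and replicate 1 was higher.

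Atp2a1 (ENSMUSG00000030730.12, chr7:126445858-126463108, minus strand), the skeletal muscle pump, had 4 reads in replicate 1 and 6 in replicate 2, or 9.30 and 9.53 CPM. The counting intervals reached from 2.53 to 23.8 CPM and from 3.50 to 20.7 CPM, so its level was known only to within several fold. Its rank of 7931 was tied with other genes of the same 2 counts, Als2cl and Bicral next to it. Atp2a3 (ENSMUSG00000020788.15, chr11:72961169-72993044, plus strand) had 1 read in replicate 1 and none in replicate 2. Both values lie under the limit that 3 reads set, and Atad2 is among the genes with the same counts. Neither gene had a read of a known transcript.

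Of the regulators, Pln had 2822 reads in replicate 1 and 4572 in replicate 2, or 6559 CPM (6320 to 6805) and 7258 CPM (7050.2 to 7471). Its mean of 6909 ± 495 CPM gave rank 10, next to Atp5a1 (7121 ± 305 CPM) and Lpl (6902 ± 124 CPM), from which it did not differ beyond the SD. Sln had 89 and 129 reads, or 207 CPM (166 to 255) and 204.8 CPM (171 to 243). Its mean of 205.8 ± 1.46 CPM gave rank 756, next to Nfs1 (205.997 ± 18.5 CPM) and Atp6v1b2 (205.6 ± 21.3 CPM). The 2 libraries overlapped for Sln and not for Pln, where replicate 2 was higher. Beside Sln, the atrial markers Nppa, Myl4, Myl7 and Bmp10 summed to 3087 CPM in replicate 1 and 3183 CPM in replicate 2. Nppa made up most of both sums (2145 and 2202 CPM). Myl4 had 539 and 618 CPM, Myl7 386 and 362 CPM, and Bmp10 only 7 reads and 1 read. RNA of atrial markers was thus present in both libraries, but the sums do not measure how much of the tissue was atrial. In whole tissue, the number of cells of a type and their RNA content cannot be told apart.

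**Figure D1:**
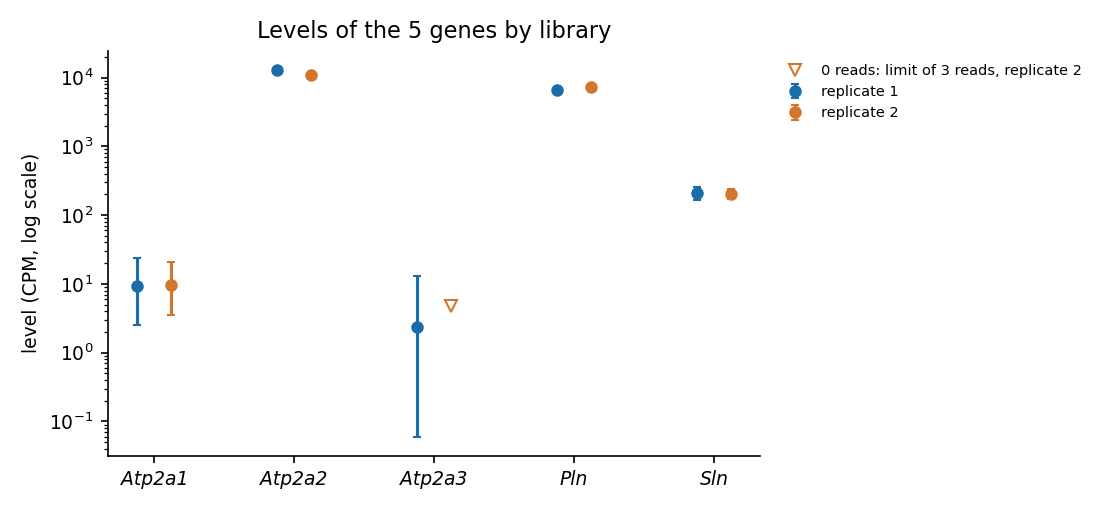
Level of each of the 5 genes in CPM on a log scale, 1 point per library, with 95% counting intervals, and an open triangle at the 3-read limit where a library had 0 reads. Atp2a2 and Pln stand highest in both libraries, Sln lies near its mean of 205.8 CPM, and Atp2a1 and Atp2a3 below 10 CPM.

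The levels fell in the order Atp2a2, Pln, Sln, Atp2a1 and Atp2a3. The steps from Atp2a2 to Pln, from Pln to Sln and from Sln to Atp2a1 exceeded the counting intervals in each library, whereas the intervals of Atp2a1 and Atp2a3 overlapped. A long read is meant to stand for 1 whole transcript, so CPM was not divided by transcript length, but how well transcripts of different length were kept was not measured. There were 0.508 Pln reads per Atp2a2 read in replicate 1 (0.486 to 0.532) and 0.674 in replicate 2 (0.649 to 0.700), a mean of 0.591 ± 0.117. The intervals did not overlap. Counting known transcripts only, the ratio was 0.172 in replicate 1 and 0.244 in replicate 2, because most Pln reads fell outside that class (described with the Pln transcripts). The Sln to Pln ratio was 0.0315 (0.0252 to 0.0390) and 0.0282 (0.0235 to 0.0336), and its intervals overlapped.

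With 1 group, the one comparison the design allows is that between its libraries. An exact two-sided binomial test was run on the raw reads of 8086 nuclear genes with at least 10 summed reads, with Benjamini-Hochberg adjustment over all of them. At an adjusted p under 0.05, 0.693% of genes passed, 0.346% in each direction, and 0.322% also differed at least 2-fold. Of the 5 members, 4 had enough reads to be tested and 2 of these passed, with none reaching 2-fold. Atp2a2 was 1.20-fold higher in replicate 1 (1.16 to 1.24, log2 0.26, adjusted p = 2.36e-20). Pln was 1.11-fold higher in replicate 2 (1.06 to 1.16, log2 -0.15, adjusted p = 0.00559), but did not pass in known transcripts alone (log2 -0.18, adjusted p = 0.327). Sln (log2 0.02) and Atp2a1 (log2 0.02) did not pass, each with an adjusted p of 1. The test covers counting error in these libraries and no spread between animals, and small differences pass in genes with many reads. With the ERCC spike-in total as library size, Atp2a2 stood at log2 -0.0069 (adjusted p = 0.999) and Pln at -0.41 (adjusted p = 9.64e-31). That scaling moved the median of all genes by -0.27, and 18 genes passed higher and 337 lower in replicate 1 under it, against 28 and 28.

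Transcript length moved with the difference between the libraries. Among genes with at least 100 summed reads, the median log2 ratio was -0.05 for leading transcripts under 1000 bases, -0.10 from 1000 to 2000 bases, -0.05 from 2000 to 3000 bases, 0.10 from 3000 to 4000 bases, 0.06 from 4000 to 5000 bases and 0.15 beyond that. The leading transcript of Atp2a2 has 3984 bases, that of Pln 2334 and that of Sln 1318. Taken relative to genes of the same length class, Atp2a2 was still higher in replicate 1 (log2 0.16, adjusted p = 1.59e-07), and Pln did not pass (log2 -0.093, adjusted p = 0.446). Under this scaling 22 genes passed higher and 8 lower in replicate 1.

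**Figure D2:**
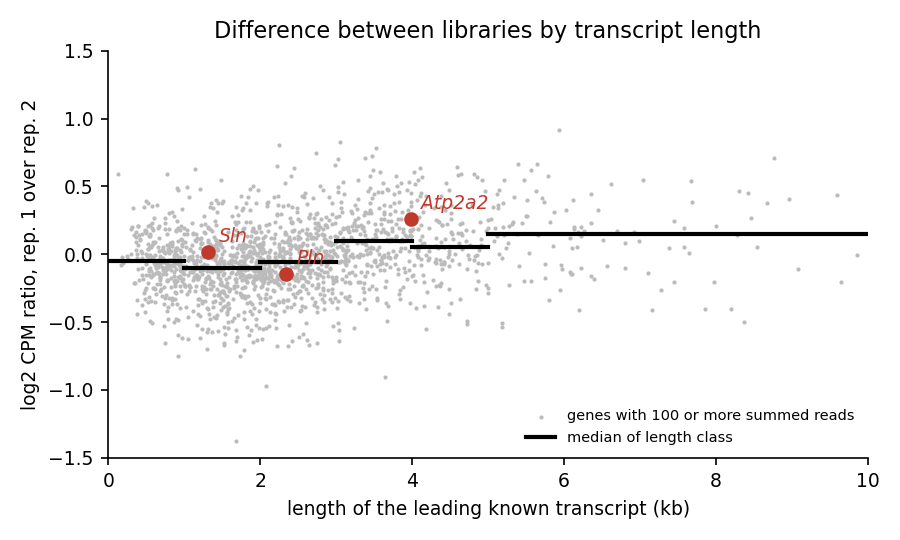
Log2 ratio of CPM in replicate 1 over replicate 2 against the length of the leading known transcript, for genes with at least 100 summed reads (grey points, 11 lie outside the axes), with the median of each length class as a black line. Atp2a2 (0.26) lies above and Pln (-0.15) below the median of its class, 0.10 and -0.05.

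The read classes of the members differed from gene to gene far more than from library to library. Known transcripts match the annotation. An incomplete splice match (ISM) follows a known transcript over part of its length, and its suffix kind lacks the 5′ part. NIC models combine known splice sites in an unlisted way, NNC models use at least 1 site that the annotation lacks, and genomic models fall in a gene but keep to none of these patterns. Known transcripts took 78.6% (77.5 to 79.7) and 75.4% (74.3 to 76.4) of Atp2a2 reads, 26.6% (24.99 to 28.3) and 27.3% (26.0 to 28.6) of Pln reads, and 100% (95.9 to 100) and 98.4% (94.5 to 99.8) of Sln reads. Over all 3318 genes that had 20 or more reads per library, the median known share was 84.5% in replicate 1 and 84.1% in replicate 2.

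Fisher's exact test of the known share between the libraries, adjusted over those genes, passed for 0.0904% of them, and Atp2a2 was 1 of the 3 that passed (3.24 percentage points higher in replicate 1, adjusted p = 0.0240). That difference is under the median absolute difference over all genes of 3.68 points, and without genomic models it was 2.15 points with an adjusted p of 0.256. Pln and Sln did not pass, each with an adjusted p of 1. The main single-exon model of Atp2a2 lay in different places in the 2 tables. In replicate 1 it was an ISM model with 52 reads and 791 bases, all within the gene. In replicate 2 it was a genomic model with 97 reads and 1513 bases, of which 1511 lay past the annotated 3′ end and 2 within the gene. The share of reads in single-exon models of Atp2a2 was 0.973% and 1.44%.

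**Figure D3:**
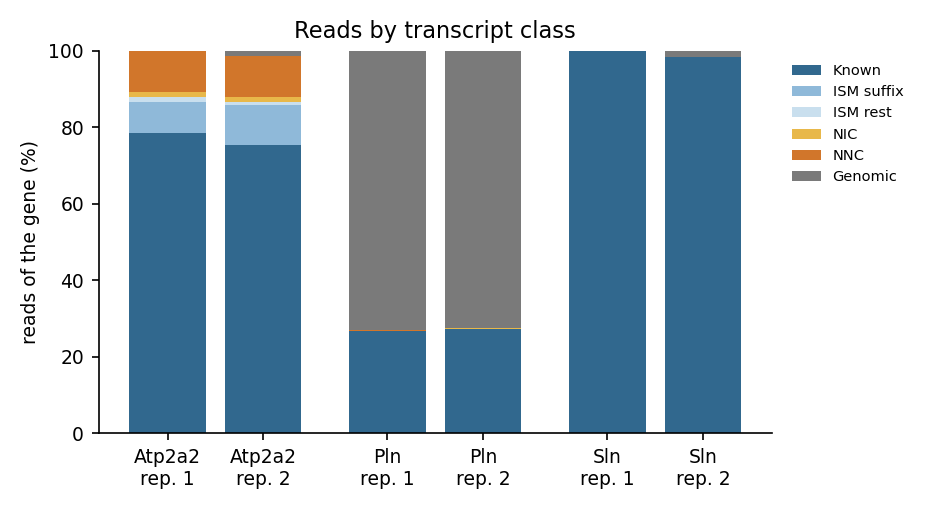
Share of the reads of Atp2a2, Pln and Sln in each transcript class, 1 bar per library, in percent of the reads of the gene. Genomic models take 73.1% and 72.5% of Pln reads, while known transcripts take most reads of Atp2a2 and Sln.

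At the 3′ end, Atp2a2 was read almost wholly as the SERCA2a form. Of 5551 reads in replicate 1, 5273 (94.99%, 94.4 to 95.6) used the SERCA2a last intron, and of 6784 reads in replicate 2, 6393 (94.2%, 93.7 to 94.8) did. The SERCA2b end, which serves the general calcium store of most cells, had 107 reads (1.93%, 1.58 to 2.32) and 156 reads (2.30%, 1.96 to 2.68). Counted over SERCA2a, SERCA2b and the annotated long-exon form described below, SERCA2a took 98.0% (97.6 to 98.3) and 97.6% (97.2 to 98.0). The mean was 97.8% ± 0.263 (SD, n = 2). Annotated early ends (7 and 8 reads) were left out of this count. The 2 libraries did not differ beyond counting error (Fisher's exact test, two-sided, p = 0.191, difference 0.372 percentage points). In known transcripts alone, the SERCA2a transcript Atp2a2-202 (21 exons) had 4272 and 4998 reads, and the SERCA2b transcript Atp2a2-201 (20 exons) had 86 and 107.

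A form that the annotation lacks stood near SERCA2b in its read counts. In 98 reads of replicate 1 and 111 of replicate 2 (1.77% and 1.64% of Atp2a2 reads), an extra exon stood between the shared exon and the SERCA2a last exon. This cassette had a length of 57 bases (chr5:122456455-122456511) in 73 and 79 reads, and of 116 bases (chr5:122456455-122456570) in 25 and 32 reads. Both versions end at the same base and lie inside the 3′ UTR of the SERCA2b exon, the shorter one beginning 640 bases past the SERCA2b stop codon. The 57-base cassette was found in 14 models in replicate 1 and 7 in replicate 2, and the 116-base cassette in 6 and 10. The junction of the shared exon (lower case) with the first bases of the 57-base cassette (capitals) shows the letters by which this form parts from both annotated ends.
Cassette junction: acctggaacaacccgAAAACATTGCTCCAG

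Read from the annotated start codon, the form with the 57-base cassette has a frame of 1012 codons, the last 18 of them past the shared part, with a stop codon inside the cassette. With the 116-base cassette the frame runs on into the last exon, for 89 codons past the shared part and 1083 in all. These are frames of the reference sequence, and no protein was measured. Other 3′ forms were rare. The annotated form that keeps a long exon before the SERCA2a last exon had 2 reads and 1 read, a shifted donor before the last exon had 6 in each library, annotated early ends had 7 and 8, and other last introns had 4 and 11.

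**Figure D4:**
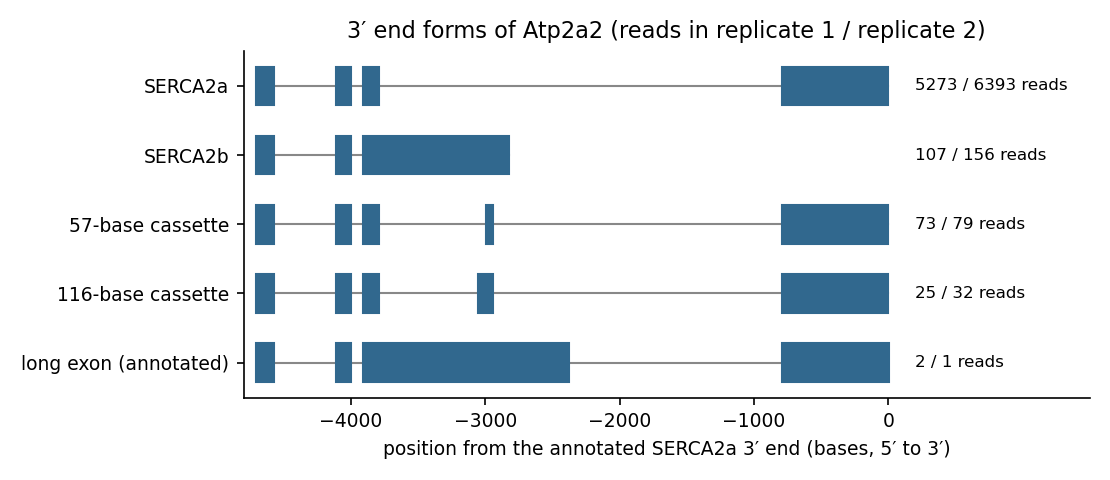
Exons (boxes) and introns (lines) of the 3′ part of Atp2a2 for 5 forms, drawn to scale in bases from the annotated SERCA2a end, with the reads in replicate 1 and replicate 2 at the right. SERCA2a holds 5273 and 6393 reads, and both cassettes lie within the stretch that SERCA2b keeps as its last exon.

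Most reads of the rarer 3′ forms also reached back to the first exon. Models starting in the first exon held 91.4% (90.6 to 92.2) and 88.8% (88.0 to 89.5) of SERCA2a reads, 88.8% (81.2 to 94.1) and 79.5% (72.3 to 85.5) of SERCA2b reads, and 87.8% (79.6 to 93.5) and 89.2% (81.9 to 94.3) of cassette reads. The intervals of the 3 forms overlapped in replicate 1. In replicate 2, SERCA2b lay below SERCA2a.

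Seen over all reads with a 3′ form that reaches the pump's last exons, 91.3% of 5486 reads (90.5 to 92.0) began in exon 1 in replicate 1 and 88.5% of 6667 (87.8 to 89.3) in replicate 2. These intervals did not overlap, and replicate 1 was the more complete. Exon 8 (chr5:122469350-122469814), the longest internal exon with 465 bases, was the most frequent later start, with 134 reads (2.44%) and 158 reads (2.37%). It held 29.1% and 21.2% of the starts after exon 1. Exon 14 (336 bases) followed with 50 and 88 reads. Models lacking a 5′ part as ISM suffixes held 8.05% and 10.4% of Atp2a2 reads. Over the reads of all nuclear genes the suffix share was 7.77% and 7.999%. Pooled over both libraries, the suffix share of Atp2a2 was 9.36%, against a median of 4.28% (quartiles 1.79 to 9.00) in 402 genes of like length.

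**Figure D5:**
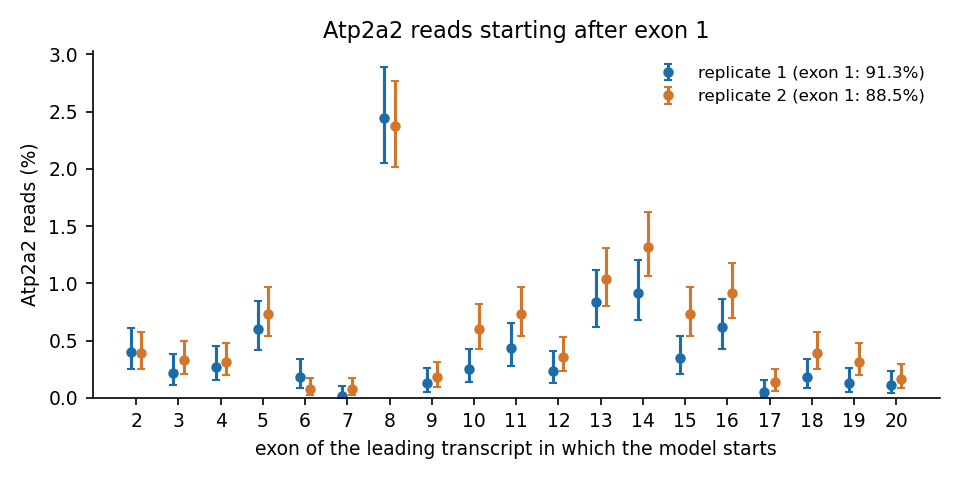
Share of Atp2a2 reads whose model starts in each exon after the first of the leading transcript, in percent, with 95% counting intervals, 1 colour per library. Exon 8 stands highest at 2.44% and 2.37%. Exon 21, the last, is not drawn because a model starting there has no last intron to assign it to a form.

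Near the 5′ end, the second exon of 18 bases was missing from part of the pump reads. Among Atp2a2 reads that reach across it, 431 of 5020 lacked it in replicate 1 (8.59%, 7.82 to 9.39) and 514 of 5922 in replicate 2 (8.68%, 7.97 to 9.43). The mean was 8.63% ± 0.0664 (SD, n = 2), and the libraries did not differ beyond counting error (Fisher's exact test, two-sided, p = 0.865). In 412 and 489 of these reads (95.6% and 95.1%) the first exon also ran 4 bases past its annotated end. The second exon was absent from 8.69% and 8.67% of spanning SERCA2a reads, 5.26% (1.73 to 11.9) and 9.68% (5.10 to 16.3) of SERCA2b reads, and 6.98% (2.60 to 14.6) and 7.07% (2.89 to 14.03) of cassette reads, with overlapping intervals.

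The few reads of the other pumps all lacked it: 2 of 2 and 5 of 5 spanning reads of Atp2a1, and the single read of Atp2a3. In Atp2a1, the first exon ran 26 bases past its annotated end in 2 and 4 of these reads. In the Atp2a3 read it ran 10 bases past. Exons this short are scarce in the data. Of internal exons that no annotated transcript of their gene skips, 10 were at most 20 bases long and had at least 20 spanning reads. The Atp2a2 exon is itself among these 10. The median share of reads without the exon over the 10 was 5.87% (quartiles 2.29 to 13.5). Of the 10, 3 exceeded the 8.61% of Atp2a2 pooled over both libraries. The median was 0% in each longer class, from 21 to 50 bases upward. How the alignment placed so short an exon was not tested.

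NNC models, those with an unannotated splice site, held 595 reads (10.7%) and 718 reads (10.6%) of Atp2a2. The first-exon end described above, 4 bases past the annotated one, was in 375 and 431 of them. Of the other 220 and 287 reads, 91 (41.4%) and 134 (46.7%) had every new site within 10 bases of an annotated site, and cassette models made up 77 of the 129 and 89 of the 153 that did not. After the first-exon end, the new site most read in NNC models was the 3′ end of the cassettes (78 and 89 reads). Exon ends 4 bases past the annotated end were also read at chromosome 5 positions 122461859 (49 and 77 reads) and 122465946 (24 and 22 reads). The ends of the cassettes lay 562 to 677 bases from any annotated site and made up 3 of the 6 new sites most read. Over all classes, the first-exon end was in 412 and 489 reads without the second exon, and the cassettes were in 98 and 111. Some models with a new site therefore carried another class label in the deposited tables, and the NNC share does not hold all such reads.

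The few Atp2a1 reads also covered its own 3′ splice choice, a 42-base exon (chr7:126446545-126446586) that parts the adult from the neonatal form of the skeletal pump. It was kept in 3 of 4 reads of replicate 1 and 4 of 5 of replicate 2. These counts are too small for a share.

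Most Pln reads sat in a model with no splice junction. This single-exon genomic model held 2062 of 2822 reads in replicate 1 (73.1%, 71.4 to 74.7) and 3313 of 4572 in replicate 2 (72.5%, 71.1 to 73.8). It covered the whole coding sequence and ended at the annotated end of the gene. Its start lay 1174 bases before the main last exon in replicate 1 and 272 bases before it in replicate 2. These ends belong to the model and not to each read, so how many of the reads held intron sequence was not measured. Pooled over both libraries, 72.7% of Pln reads were single-exon, against a median of 2.29% in 1657 genes with at least 100 reads and a spliced leading transcript. Only 14 of these genes were higher, and the median in 540 genes of like length was 2.06%.

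The coding sequence of Pln lies in 1 exon, so the annotated splice forms described here differ in the UTRs. Of the spliced reads, 675 of 760 in replicate 1 and 1118 of 1259 in replicate 2 (88.8% in both) joined the first exon (chr10:53337693-53337795) directly to the main last exon (chr10:53343757-53345987). A middle exon ending at the annotated base of chr10:53341982-53342108 was read in 55 (7.24%, 5.50 to 9.32) and 97 (7.70%, 6.29 to 9.32). An acceptor 71 bases farther downstream, 36 bases before the start codon, was used in 23 (3.03%) and 37 (2.94%), and one 272 bases upstream of the main acceptor in 5 and 9. An intron of 94 bases inside the last exon (chr10:53344673-53344766), 651 bases past the coding sequence, was read in 3 and 6, and an unannotated first exon upstream of the gene in 3 and 2. Each of these shares had overlapping intervals in the libraries.

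Among known transcripts, Pln-201 held 673 and 1113 reads, Pln-204 51 and 88, Pln-205 21 and 33, Pln-202 4 and 8, and Pln-206 2 and 5. The share of the leading known transcript was compared between the libraries by Fisher's exact test over 1356 genes with more than 1 known transcript read, of which 0.0737% passed. Neither member tested passed: the leading share of Atp2a2 was 97.9% and 97.8%, that of Pln 89.6% and 89.3%, each with an adjusted p of 1. Over all genes tested, the median leading share was 94.9% and 94.1%.

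Sln was read as 1 transcript. Sln-201, whose first exon of 163 bases is spliced over 3079 bases to a last exon of 1155 bases, held all 89 reads in replicate 1 and 127 of 129 in replicate 2. The other 2 were in genomic single-exon models. No read held another splice form. Counted over all 89 and 129 reads, this allows a share of up to 4.06% and 2.82% at the upper 95% bound. The 129 include the 2 single-exon reads, which show no splice form.

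Other genes of calcium cycling were read from a list of 43 in 5 groups. Of these, 42 are in the annotation, 40 were read and 35 were tested between the libraries. Only Srl (sarcalumenin, a calcium-binding glycoprotein that stabilises SERCA2) passed, higher in replicate 1 (log2 0.25, adjusted p = 0.00811), and none passed lower. The share that passed among all 8086 genes tested was 0.693%, 0.346% in each direction. Srl did not pass with spike-in totals (log2 -0.013, adjusted p = 1), in known transcripts alone (0.10, adjusted p = 1) or relative to its length class (0.10, adjusted p = 0.894). The median log2 ratio of the tested genes was -0.05, against 0.01 over all genes tested.

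Partners of the pump in the sarcoplasmic reticulum summed to 5191 ± 120.5 CPM over 8 genes. Srl led with 1002 and 1230 reads, followed by Hrc, a histidine-rich protein of the lumen that binds SERCA2 (728 and 1135 reads), and S100a1, a calcium sensor that binds the pump (382 and 576 reads). Of 4 other SERCA micropeptide genes, 3 were matched to the annotation, and all 3 were lower than Pln. Strit1, whose peptide DWORF counters the inhibition by phospholamban, is listed there as Gm34302, the synonym that RefSeq's GRCm38.p6 gene table gives. It had 185 reads (429.98 CPM) and 274 reads (434.99 CPM), a mean of 432 ± 3.54 CPM, above Sln in both libraries, and did not pass the test between them (log2 -0.015, adjusted p = 1). 1810037I17Rik, which encodes another-regulin, had 24 and 52 reads, and Mrln, the gene of myoregulin in skeletal muscle, had 1 read and none. Erln was not matched by name.

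The group of luminal storage and release genes summed to 2947 ± 26.2 CPM, led by Casq2, the cardiac calsequestrin (496 and 687 reads), Tmem38a, a potassium channel of the store (300 and 491 reads), and Trdn, the triadin gene (237 and 360 reads). Ryr2, the calcium release channel, had 50 and 80 reads, and Jsrp1 and Fkbp1b had none in either library. The next group held kinases and phosphatases that act on phospholamban, with regulatory kinase subunits, an anchoring protein, phosphatase inhibitors and phosphodiesterases. It summed to 3360 ± 17.2 CPM, with the regulatory subunit gene Prkar1a (379 and 484 reads), Prkaca (237 and 395 reads) and Ppp2ca (202 and 325 reads) highest. The genes of calcium entry and extrusion at the cell membrane had the lowest sum of the 5 groups, 161 ± 19.9 CPM. They were led by Cacna1c, the L-type channel (21 and 29 reads), Slc8a1, the sodium-calcium exchanger (19 and 24 reads), and Cacnb2, a channel subunit (9 and 37 reads). Several of these are encoded by very long transcripts, and how fully such transcripts were captured was not tested, so their place below the pump is that of reads and not of molecules in the cell.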

How the data were processed

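Members and gene lists were chosen with earlier results of these data known. The deposited tables hold raw counts of reads for each transcript model, separately for each library. Reads were aligned to mm10 and compared with GENCODE M21, per the text files deposited beside them. The deposited annotation names TALON as the source of new models. Exon numbers, lengths and positions, also deposited by the authors, belong to models. The aligner, versions and strand handling are not given in the sources used here. Reads of all classes were summed per gene and scaled to CPM from the deposited counts over nuclear genes. Log2 ratios used 0.5 added reads. Libraries were compared with exact binomial and Fisher's tests (SciPy 1.17.1, Python 3.11.15) and Benjamini-Hochberg adjustment, tested on simulated data. Shares have Clopper-Pearson 95% intervals. Atp2a2 models were assigned to 3′ forms by their last intron. Alternatives used TMM (edgeR 4.0.16), median-of-ratios factors (DESeq2 1.42.0), spike-in totals, other classes and minimums. Named were all members, the 3 highest genes of each calcium list, genes that passed, and the genes next to each member in level. Listed symbols that the annotation lacks were looked up among RefSeq synonyms. Single unannotated splice sites, Ryr2, Strit1's synonym, list members with no read and antisense loci were named after their values were seen.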

Additional observations from a re-analysis of the deposited data

Results flagged for a closer look

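Reads on the strand opposite to members were found in loci outside the member set, each with more than 3 reads in both libraries. Gm43361, an annotated locus opposite to Atp2a2, had 12 reads in replicate 1 and 14 in replicate 2, and unannotated antisense models opposite to Atp2a2 had 7 and 8. Gm47644, a locus opposite to Pln, had 18 and 22. No source used here says how strand was assigned, and these reads cannot be told apart from reads of the members placed on the wrong strand.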

How the results depend on the processing

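Member levels, library differences, the known and leading shares, the SERCA2a share and the Pln to Atp2a2 ratio were recomputed with other scalings, read classes or minimums, as each allowed. The 5′ extent and the second exon were recomputed in each library alone, and the cassette shares, Pln splice forms, Sln to Pln ratio and list sums were not. The settings by length class, the Pln to Atp2a2 ratio by class and the values of each library alone for the 5′ extent and the second exon were chosen after seeing the data. No paired analysis was possible because the series holds a single group.

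In these settings CPM was calculated over the reads each setting kept, so a level could rise without more reads. In known transcripts only, mean levels were 0 CPM for Atp2a1, 2463 for Pln and 270.05 for Sln. Without genomic models they were 9.87 CPM for Atp2a1, 1975 for Pln and 214 for Sln, and over all mouse reads 9.05 CPM for Atp2a1 and 198 for Sln. The Pln to Atp2a2 ratio fell to 0.208 in known transcripts and 0.163 in spliced models. With spike-in totals Atp2a2 (log2 -0.0069) and Srl (log2 -0.013) changed sign and no longer passed. Under that scaling 355 genes passed and 70 also reached 2-fold. Relative to length class, Pln did not pass (log2 -0.093) and 30 genes passed. In known transcripts Pln did not pass (log2 -0.18, adjusted p = 0.327) and 15 genes passed at 2-fold. Without genomic models the known share of Atp2a2 differed by 2.15 points and did not pass, while 27 genes passed. Apart from how the alternatives were built, the cause was not tested. TMM and median-of-ratios scaling, and both other minimums, changed no call of a member.

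In single libraries, the mean level ranged from 10770 to 12902 CPM for Atp2a2, 6559 to 7258 for Pln, 204.8 to 207 for Sln, 9.30 to 9.53 for Atp2a1 and 0 to 2.32 for Atp2a3. The SERCA2a share ranged from 97.6% to 98.0%, and over the other ways of counting the ends from 97.6% to 97.97%. One of these ways used only the position of the 3′ end. It also counted cassette reads with the SERCA2a end as SERCA2a, which the main count left out. Depth limits Atp2a1 and Atp2a3, whose shares of splice forms could not be measured.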
